A study of Mus musculus with 6 samples.

Results

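Purkinje cells are the output neurons of the cerebellar cortex, and a small set of genes is used to recognise them. The genes described here were 10 such genes: Pcp2, Pcp4, Pvalb, Car8, Calb1, Itpr1, Lhx1os, Lhx1, Ppp1r17 and Clec2l. They were taken by symbol from a table of 55492 genes, and all 10 were among the 15245 genes whose mean TPM was at least 0.5. TPM is transcript abundance per length, with an equal total for each library. All 10 also reached that level in the WT samples alone. The genes were chosen by their TPM in Npc1-/- against WT samples of these same 6 libraries, since several had among the highest folds, so their difference between genotypes is given as a description with no test.

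The data were RNA-seq profiles of bulk cells from the whole brain of mice at postnatal day 16, and 3 WT and 3 Npc1-/- mice gave 1 library each. Npc1-/- mice carried the nih allele of Npc1 on both chromosomes and were F1 hybrids of BALB/cJ and C57BL6/J parents. Npc1 encodes a cholesterol transporter of the late endosome and lysosome that is lost in Niemann-Pick type C disease. The allele is carried in every cell of the mouse, neurons included, and no animal was treated. Cells were selected with microbeads against O4, a lipid antigen of the oligodendrocyte lineage, so Purkinje cells were not the cells sought. In such bulk samples, fewer cells of a type and less RNA per cell cannot be told apart. Values below are TPM divided by a size factor per sample, called scaled TPM, and replicates are named by number.

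Depth, estimated from the spacing of low FPKM values, lay between 40250000 and 50250000 fragments per library. Npc1 itself had 45.5 to 53.3 TPM in WT and 3.16 to 4.42 TPM in Npc1-/- samples. Mbp, the myelin basic protein gene that marks oligodendrocytes, was the most abundant gene of its list in every library, at 145087 to 359525 scaled TPM. Npc1-/- replicate 3 was the sample with Xist (15.6 TPM) and with Ddx3y listed at 0, whereas the other 5 samples had Ddx3y at 14.4 to 23.6 TPM. Of all 15245 genes, 61 (0.400%) rose and 63 (0.413%) fell in Npc1-/- cells by limma, where a call needed a Benjamini-Hochberg adjusted p below 0.05 and a log2 fold change of 0.1 or more in size. All Npc1-/- values lay above all WT values in 13.3% of genes and below them in 14.2%. At an unadjusted p below 0.05 the shares were 10.6% higher and 11.6% lower. On TPM as deposited the balance shifted to 54 higher and 870 lower, where the median of all genes was -0.33 in log2 fold change in place of 0.01.

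Purkinje cells receive glutamate from granule neurons, and part of that signal runs through phospholipase C, which makes IP3. IP3 opens the calcium channel Itpr1 on the endoplasmic reticulum, and the calcium is then bound by buffer proteins, among them Pvalb and Calb1, or pumped away. Car8, a carbonic anhydrase relative without enzyme activity, binds Itpr1, and Ppp1r17 (G-substrate) is a phosphatase inhibitor switched on by cGMP-dependent kinase. Pcp2 modulates G proteins, Pcp4 binds calmodulin, Lhx1 is a LIM-homeodomain transcription factor, Lhx1os is a noncoding RNA made from the opposite strand beside Lhx1, and Clec2l is a lectin-like membrane protein. Few of these genes are used by Purkinje cells alone: Pvalb and Calb1 also mark interneurons elsewhere, Pcp4 is used by forebrain neurons and Itpr1 by many cell types.

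As a group, the 10 genes were higher in Npc1-/- samples, with a median log2 fold change of 1.24 against 0.01 over all genes tested. In 8 of the 10 all Npc1-/- values exceeded all WT values, a separation that 13.3% of all genes showed, and nothing is read from that count because the same contrast chose the genes. Itpr1 was the 1 gene that lay lower in every Npc1-/- sample, and the values of Lhx1 overlapped. The summed level of the 10 genes was 414, 391 and 369 scaled TPM in WT replicates 1, 2 and 3 and 1087, 1055 and 1234 in Npc1-/- replicates 1, 2 and 3. The group means differed 2.87-fold, and in TPM as deposited, without size factors, 2.21-fold. On that scale the 10 genes had a median of 0.88 in log2 fold change, and all genes had their median at -0.33. Pcp2 and Pcp4 made up most of that sum, 72.3% to 75.1% in WT and 77.6% to 79.3% in Npc1-/- samples. Without that pair the sum of the other 8 genes was 103 ± 6.30 scaled TPM in WT and 242 ± 13.3 in Npc1-/- samples (SD, n = 3), 2.35-fold higher.

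**Figure D1:**
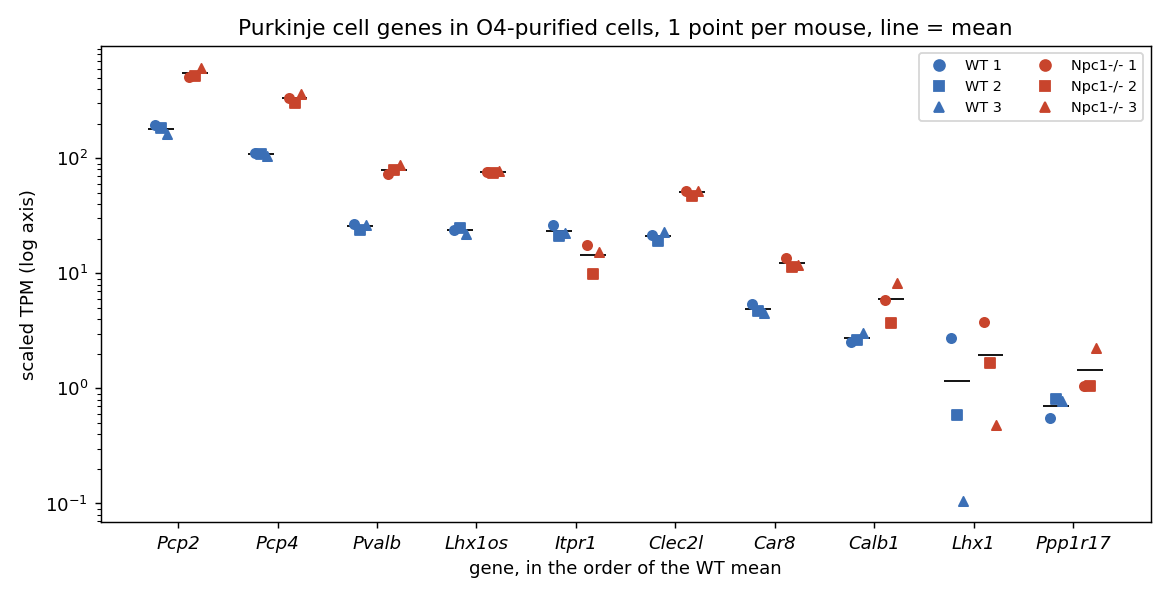
Scaled TPM on a log axis for each of the 10 genes, in the order of the WT mean, with 1 point per mouse (circles, squares and triangles are replicates 1, 2 and 3; blue WT, red Npc1-/-) and a bar at each group mean. The red points lie above the blue points in 8 genes, below them in Itpr1 (9.93 to 17.6 against 21.2 to 26.4) and among them in Lhx1.

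Pcp2 (ENSMUSG00000004630), a GoLoco-domain regulator of Gi and Go proteins that Purkinje cells and retinal bipolar cells make, was the most abundant of the genes. Its levels were 193, 184 and 164 scaled TPM in WT and 511, 523 and 614 in Npc1-/- samples. The lowest Npc1-/- value was thus far above the highest WT value, and the means of 180 ± 15.3 and 549 ± 56.7 (SD, n = 3) stood 3.04-fold apart, a log2 fold change of 1.60 with a standard error of 0.12. The gene lies on chromosome 8 of GRCm38 from 3623371 to 3625545 on the minus strand and has 7 annotated transcripts. Pet100, a mitochondrial assembly factor gene, overlaps it on the plus strand. Pet100 had 19.2 to 29.5 scaled TPM in WT and 30.8 to 35.5 in Npc1-/- samples (log2 fold change 0.38 with an adjusted p of 0.229 by limma). Whether the strand was used in counting is not given in the sources used here, and without it the reads of the overlap cannot be told apart.

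Pcp4 (ENSMUSG00000090223), a short calmodulin-binding protein with an IQ motif, stood next in abundance. It had 111, 109 and 104 scaled TPM in WT and 332, 303 and 364 in Npc1-/- samples. Its WT values were close together, and the means of 108 ± 3.73 and 333 ± 30.6 differed 3.09-fold (log2 fold change 1.62, standard error 0.10). Pcp4 lies on chromosome 16 from 96467606 to 96525793 on the plus strand, and its longest transcript has 641 bases.

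Pvalb (ENSMUSG00000005716), a fast EF-hand calcium buffer, had 27.0, 23.6 and 26.3 scaled TPM in WT and 73.0, 78.7 and 87.3 in Npc1-/- samples. The fold was like that of Pcp2 and Pcp4: 25.6 ± 1.77 against 79.7 ± 7.20, or 3.11-fold (log2 fold change 1.62, standard error 0.10). It lies on chromosome 15 from 78191114 to 78206400 on the minus strand. Calb1 (ENSMUSG00000028222), the second calcium buffer of the set, was scarcer and varied more. It had 2.56, 2.64 and 3.02 scaled TPM in WT and 5.87, 3.70 and 8.27 in Npc1-/- samples, so that its Npc1-/- values lay farther from each other than the lowest of them lay from WT. Its means were 2.74 ± 0.250 and 5.95 ± 2.29, 2.17-fold apart (log2 fold change 0.93, standard error 0.25). Calb1 lies on chromosome 4 from 15881264 to 15908064.

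Itpr1 (ENSMUSG00000030102), the IP3-gated calcium channel, went the other way. Its levels were 26.4, 21.2 and 22.3 scaled TPM in WT and 17.6, 9.93 and 15.4 in Npc1-/- samples. No Npc1-/- value reached a WT value, and the means of 23.3 ± 2.78 and 14.3 ± 3.96 gave a fold of 0.614 (log2 fold change -0.72, standard error 0.21). The gene lies on chromosome 6 from 108213096 to 108551109, with 13 annotated transcripts, the longest of 9870 bases and 62 exons. The antisense genes Gm44040 and Gm44101 within it reached no more than 0.106 scaled TPM in any sample. Its relatives Itpr2 and Itpr3 also had lower values in every Npc1-/- sample, with log2 fold changes of -0.38 and -0.69 and adjusted p of 0.131 and 0.0755 by limma, which did not pass the test.

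Car8 (ENSMUSG00000041261), the partner of Itpr1, was higher in Npc1-/- samples while Itpr1 was lower. It had 5.38, 4.74 and 4.55 scaled TPM in WT and 13.5, 11.4 and 11.9 in Npc1-/- samples. The means of 4.89 ± 0.433 and 12.3 ± 1.10 differed 2.51-fold (log2 fold change 1.24, standard error 0.11). Car8 has 1 annotated transcript of 3853 bases on chromosome 4 from 8143362 to 8239041, and its values rested on about 509 to 781 fragments in WT and 1124 to 1616 in Npc1-/- libraries. Ppp1r17 (ENSMUSG00000002930) had the lowest mean level of the 10 genes. It had 0.548, 0.804 and 0.770 scaled TPM in WT and 1.05, 1.04 and 2.26 in Npc1-/- samples, with only about 33 to 38 fragments behind a WT value and 45 to 90 behind an Npc1-/- value. The WT and Npc1-/- values did not overlap, but Npc1-/- replicate 3 held much of the difference. Its log2 fold change was 0.64 with a standard error of 0.26, and 0.37 without that library, on a scale where the added 0.5 understates the change of so low a gene.

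Clec2l (ENSMUSG00000079598) had 21.4, 19.3 and 23.1 scaled TPM in WT and 52.2, 47.3 and 52.3 in Npc1-/- samples. Both groups were tight, and the means of 21.2 ± 1.89 and 50.6 ± 2.89 differed 2.38-fold (log2 fold change 1.24, standard error 0.10). Its single transcript of 1428 bases lies on chromosome 6 from 38663069 to 38680864 and carried about 677 to 1020 fragments in WT and 1593 to 2051 in Npc1-/- libraries. Clec2d, a lectin-like gene of the same family, had lower values in every Npc1-/- sample (log2 fold change -0.51, limma adjusted p = 0.151) and did not pass the test.

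Lhx1os (ENSMUSG00000087211) and Lhx1 (ENSMUSG00000018698) begin 124 bases apart on chromosome 11 and run in opposite directions, Lhx1os from 84525660 to 84535831 on the plus strand and Lhx1 from 84518284 to 84525535 on the minus strand. The noncoding Lhx1os had 24.0, 24.7 and 22.1 scaled TPM in WT and 76.7, 74.7 and 76.8 in Npc1-/- samples. It had the highest fold of the 10 genes and the smallest pooled SD of log2 values within genotypes (0.06), with means of 23.6 ± 1.35 and 76.1 ± 1.20, 3.22-fold apart (log2 fold change 1.67, standard error 0.08). Lhx1 itself had 2.76, 0.587 and 0.106 scaled TPM in WT and 3.74, 1.66 and 0.482 in Npc1-/- samples. The genotypes overlapped throughout, and in both of them replicate 1 was the highest and replicate 3 the lowest. Between samples of the same replicate number, Lhx1 was higher in the Npc1-/- sample each time. Its log2 fold change of 0.69 was smaller than its standard error of 0.71, which was 0.18 with the replicate number as a block. Single libraries decided its size, since it was 0.14 without WT replicate 3, 0.17 without Npc1-/- replicate 1, 1.25 without Npc1-/- replicate 3 and 1.33 without WT replicate 1.

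The starts of these genes were compared in RefSeq sequence of GRCm38.p6, in which 6 of the 10 genes had an entry. The windows shown are those of Pcp4 and Pvalb, a pair whose folds were alike, and the stretch between the divergent starts of Lhx1os and Lhx1, whose values were not. Each is written 5′ to 3′ on the strand named, and capitals mark a match to AGGTCA, the core motif of nuclear receptors such as Rora, or to its reverse complement TGACCT.
Pcp4, chr16:96467356-96467605, plus strand: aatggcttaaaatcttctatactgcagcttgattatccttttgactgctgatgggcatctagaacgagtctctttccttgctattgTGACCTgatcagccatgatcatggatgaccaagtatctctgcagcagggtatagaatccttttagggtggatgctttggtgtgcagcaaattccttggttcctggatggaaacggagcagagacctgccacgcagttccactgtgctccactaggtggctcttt
Pvalb, chr15:78206401-78206650, minus strand: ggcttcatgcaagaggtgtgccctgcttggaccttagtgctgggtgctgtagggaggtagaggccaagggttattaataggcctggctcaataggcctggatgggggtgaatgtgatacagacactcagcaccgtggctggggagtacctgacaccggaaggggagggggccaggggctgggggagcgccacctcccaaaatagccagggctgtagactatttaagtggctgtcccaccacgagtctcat
Lhx1 and Lhx1os, chr11:84525536-84525659, plus strand: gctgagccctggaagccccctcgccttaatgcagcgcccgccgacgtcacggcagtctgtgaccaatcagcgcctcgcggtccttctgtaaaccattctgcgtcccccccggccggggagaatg
AGGTCA occurred on either strand in 14.0% of 32851 windows of 250 bases before a gene start. Among the 6 genes it was found before Pcp2, from base -12, and before Pcp4, where it begins at base -164, and not in the windows of Pvalb, Clec2l, Lhx1 or Lhx1os. TAATTA, a core motif of LIM-homeodomain factors such as Lhx1, occurred in 4.84% of the windows on either strand and in none of the 6. A match is a description of the letters and not of binding, and the windows of Lhx1 and Lhx1os share bases. The stretch between Lhx1 and Lhx1os had a GC content of 66.1%.

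The order of abundance was much the same in both genotypes. In WT samples Pcp2 came first and Pcp4 second without overlap. Pvalb, Lhx1os, Itpr1 and Clec2l followed with means of 25.6 to 21.2 scaled TPM, and each overlapped its neighbour in that order. Car8 and then Calb1 stood apart below them, and Calb1, Lhx1 and Ppp1r17 overlapped at the bottom through the wide range of Lhx1. In Npc1-/- samples Itpr1 had dropped behind Clec2l and overlapped Car8, with values of 9.93 to 17.6 against 11.4 to 13.5.

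Dividing each gene by Pcp2 within the same sample removes the size factor and leaves the mix of the set. Pcp4 was 57.3% to 65.1% of Pcp2 over all 6 samples, Pvalb 12.8% to 16.1% and Lhx1os 12.4% to 15.0%. The means of these genes in WT and Npc1-/- samples were 60.0% and 60.8% for Pcp4, 14.3% and 14.5% for Pvalb and 13.1% and 13.9% for Lhx1os. With Pcp2, these 4 genes thus kept nearly the same proportions, which restates that their folds were alike. Clec2l was on average 11.9% of Pcp2 in WT and 9.26% in Npc1-/- samples, without overlap (10.5% to 14.1% against 8.52% to 10.2%). Car8 had means of 2.71% and 2.26%, Calb1 of 1.53% and 1.07% and Ppp1r17 of 0.397% and 0.258%. The values of these last 3 genes overlapped between genotypes. Itpr1 left that mix: it was 13.7%, 11.5% and 13.6% of Pcp2 in WT and 3.45%, 1.90% and 2.51% in Npc1-/- samples. Lhx1 spread over the samples from 0.0648% to 1.43% of Pcp2, 22.1-fold, without a split by genotype.

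**Figure D2:**
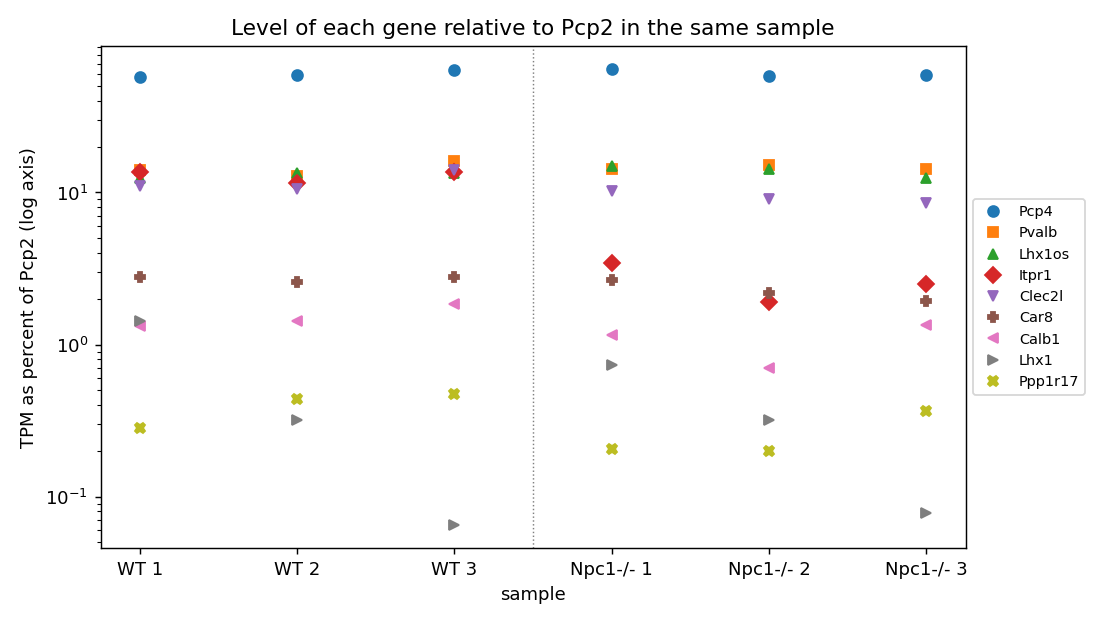
TPM of the other 9 genes as a percentage of Pcp2 in the same sample, on a log axis, with 1 marker per gene and the 3 WT samples left of the dotted line. Pcp4, Pvalb and Lhx1os stay level across all 6 samples, Itpr1 drops from 11.5% or more in WT to 3.45% or less in Npc1-/- samples, and Lhx1 scatters within both genotypes.

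Once the mean of each genotype was removed, the 10 genes did not move as 1 block from sample to sample. Over the 45 pairs of genes the correlation of log2 levels ran from -0.77 to 0.85 with a median of 0.34, over 6 samples that share their library's size factor. The 5 other genes whose log2 levels followed the mean of the 10 most closely over all 6 samples were Dpysl5 (r = 0.998), Sbk1 (0.993), Gmcl1 (0.990), Pdzrn4 (0.989) and Nle1 (0.987). Those values largely carry the step between genotypes, which the samples of each genotype share. With the genotype means removed, the 5 closest were different: Fmod (0.998), Pcna-ps2 (0.995), Zfp385c (0.993), Thnsl2 (0.993) and Septin11 (0.992). These are the highest of many correlations over 6 samples and serve as a description.

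The genes next to the 10 along the chromosomes were also looked up. Of 19 tested neighbours, the nearest on each side and those that overlap, 0 passed the test by limma. Over all genes 0.400% rose and 0.413% fell, so a count over 19 genes cannot show whether neighbours differ from other genes. Only Decr1, beside Calb1, had an unadjusted p below 0.05, where 10.6% of all genes were higher and 11.6% lower. Decr1, a mitochondrial fatty acid oxidation enzyme gene, had a log2 fold change of -0.26 and an adjusted p of 0.188 by limma, the smallest of the neighbours. Their log2 fold changes lay between -0.57 and 0.53 with a median of 0.01.

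A wider list of 32 Purkinje cell genes that the selection had not named gave another picture. Of its 32 genes 26 were tested, and by limma 0 rose and 0 fell after adjustment. At an unadjusted p below 0.05 there were 4 higher and 5 lower, against 10.6% and 11.6% of all genes, and the median log2 fold change was -0.16. Other settings called between 0 and 2 of them higher and between 0 and 3 lower, and without Npc1-/- replicate 3 there were 1 higher and 3 lower. The level summed over the list was 549 to 629 scaled TPM in WT and 507 to 831 in Npc1-/- samples, which overlap, and Aldoc, which astrocytes also make, had the highest level in the list. The name Purkinje cell genes therefore stands here for the genes, and not for cells shown to be in the samples.

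Gng13, a G protein gamma subunit and a short transcript of 719 bases, came closest to the 10 genes. It had 67.6, 60.3 and 87.2 scaled TPM in WT and 132, 168 and 237 in Npc1-/- samples. All Npc1-/- values were above all WT values, yet its log2 fold change of 1.29 (standard error 0.23) had an adjusted p of 0.0528 by limma. It passed under 5 of 15 other settings, whose adjusted p ran from 0.0134 to 0.189. The glutamate transporter Slc1a6, which among neurons is typical of Purkinje cells, had 0.571, 0.777 and 0.549 scaled TPM in WT and 1.71, 0.936 and 1.02 in Npc1-/- samples (log2 fold change 0.58, adjusted p = 0.179 by limma). Itpka, an IP3 kinase, and Inpp5a, an IP3 phosphatase, had log2 fold changes of 0.66 and 0.34 with adjusted p of 0.109 and 0.115 by limma, and Rgs8, a G protein regulator, 0.55 with 0.225. None of these passed.

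On the lower side of the list stood, among others, the calcium pump Atp2a3, the phospholipase Plcb4, the potassium channel subunit Kcnab1 and the transcription factor Ebf1. Atp2a3 had 19.1, 26.1 and 21.3 scaled TPM in WT and 10.5, 10.6 and 14.7 in Npc1-/- samples, a log2 fold change of -0.87 (adjusted p = 0.0557 by limma). Plcb4, Kcnab1 and Ebf1 had log2 fold changes between -0.63 and -0.61, with adjusted p from 0.118 to 0.163 by limma. The 16 further tested genes had unadjusted p values between 0.0802 and 0.938 by limma. They included the synaptic and scaffold genes Homer3, Shank2 and Mtss1, the channel genes Cacna1g, Cacna1a, Cacna2d2 and Scn4b, the calcium pump Atp2b2, the Notch ligand Dner, the nuclear receptor Rora and the enzyme Aldoc. The 6 genes below the filter included developmental and defining factors: Skor2 did not exceed 0.0193 scaled TPM, Foxp2 lay between 0.257 and 0.539, and Esrrb, Ebf2 and Lhx5 were also low, none above 0.556.

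**Figure D3:**
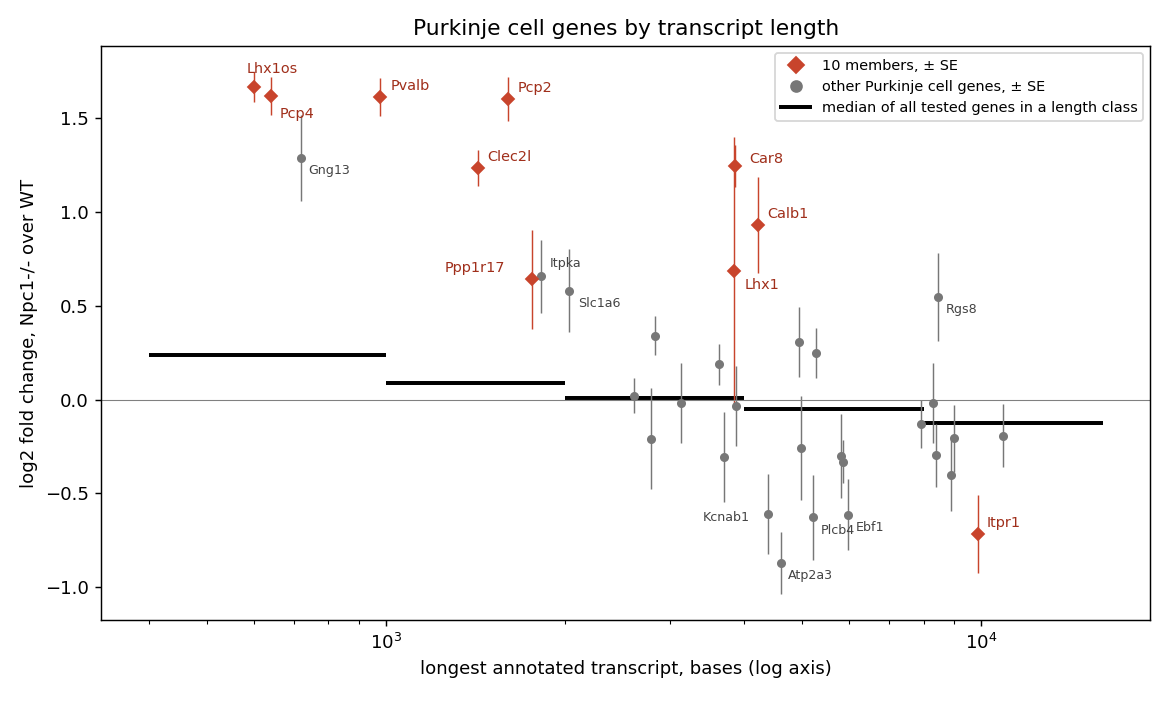
Log2 fold change (Npc1-/- over WT, with standard error) against the length of the longest annotated transcript on a log axis, for the 10 genes (red diamonds) and 26 other Purkinje cell genes (grey circles), with the median of all tested genes per length class as black bars. The shortest red genes have the highest values, up to 1.67, and the medians step down from 0.24 to -0.12.

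Fold changes in this experiment varied with transcript length. The median log2 fold change was 0.24 over 1493 genes whose longest transcript has at most 1000 bases, 0.09 from there to 2000 bases, 0.01 to 4000, -0.05 to 8000 and -0.12 over the 823 longer genes. The 10 genes have a median longest transcript of 1682 bases and the wider Purkinje list one of 4960 bases. With a length curve removed from each sample, a step added after seeing the data, the median of the 10 genes was 1.21 and that of the wider list -0.03. Lhx1os then had a log2 fold change of 1.40, Pcp4 1.36, Pvalb 1.44, Pcp2 1.52, Car8 1.28 and Itpr1 -0.58. No gene of the wider list passed under that setting by limma (Gng13 adjusted p = 0.0573), and 0 had passed before it.

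The signalling pathway around Itpr1, from G proteins and phospholipase C to the calcium pumps and the cGMP branch in which Ppp1r17 acts, was followed in 19 genes, 17 of them tested. By limma 0 rose and 0 fell after adjustment, and at an unadjusted p below 0.05 there were 2 higher and 7 lower. The median log2 fold change was -0.30, and -0.22 with the length curve removed. The soluble guanylate cyclase subunits Gucy1a1 and Gucy1b1 had log2 fold changes of -0.57 and -0.56 (adjusted p = 0.0711 and 0.0589 by limma), and the cGMP-dependent kinase Prkg1 had -0.71 (adjusted p = 0.0584 by limma). The phospholipase Plcb3 had -0.46 (adjusted p = 0.0874 by limma) and the calcium pump Atp2a2 -0.30 (adjusted p = 0.170 by limma). In each of these 5 genes every Npc1-/- value lay below every WT value, none passed, and the G protein subunits Gnaq and Gna11 differed least, with log2 fold changes of -0.08 and -0.14. Leaving out Npc1-/- replicate 3 called 4 pathway genes lower, Plcb3, Plcb4, Atp2a3 and Gucy1b1, and 0 higher.

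Relatives of the 10 genes were measured as well, 11 of 13 above the filter. By limma 0 rose and 0 fell, and the median log2 fold change was -0.22. At an unadjusted p below 0.05 there were 1 higher and 4 lower, against 10.6% and 11.6% of all genes. Pcp4l1, the closest relative of Pcp4, had 62.5 to 81.7 scaled TPM in WT and 48.0 to 56.9 in Npc1-/- samples (log2 fold change -0.41, adjusted p = 0.120 by limma). Calb2, the relative of Calb1, and Car2, the active carbonic anhydrase of oligodendrocytes, overlapped between genotypes with log2 fold changes of 0.35 and 0.24. Gpsm1, which shares the GoLoco motif with Pcp2, had a log2 fold change of 0.30 (adjusted p = 0.102 by limma).

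Other cells of the cerebellum and brain were followed by their own marker lists, all of which are fixed lists that were drawn up with earlier results of these data known. Of the granule neuron list 12 of 14 genes were tested and 0 passed, with 1 higher and 1 lower at an unadjusted p below 0.05, and the sum was 81.4 to 154 scaled TPM in WT and 84.4 to 166 in Npc1-/- samples. Gabra6, the receptor subunit of mature granule neurons, stayed between 0.343 and 1.03 scaled TPM. Cerebellar interneurons (4 of 7 tested, median log2 fold change 0.35), Bergmann glia (5 tested, -0.10), forebrain GABA interneurons (8 of 9, 0.16), striatal (7 of 8, -0.27) and cortical (4 of 6, 0.03) projection neurons had 0 genes called by limma in either direction. At an unadjusted p below 0.05, 2 interneuron genes of the cerebellum were higher, 1 gene of Bergmann glia was higher and 1 was lower, and the other 3 lists had 0. Over all genes 10.6% were higher and 11.6% lower at that level, and 0.400% rose and 0.413% fell after adjustment. Counts of 0 in lists this short therefore do not show that their genes were unchanged.

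**Figure D4:**
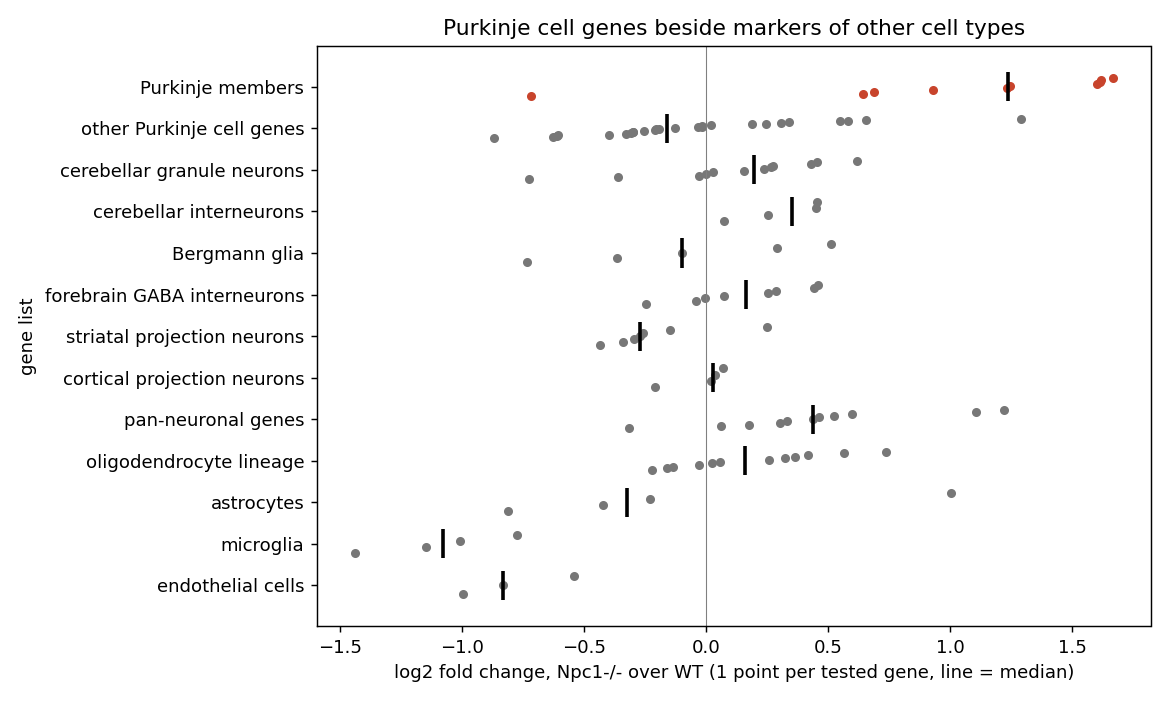
Log2 fold change (Npc1-/- over WT) of every tested gene in the cell type lists, 1 point per gene, with the median of each list as a black line and the 10 Purkinje cell genes in red. The red points lie around a median of 1.24, and the median of the other Purkinje cell genes is -0.16.

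The neuronal list included 2 genes that did rise. The neurofilament genes Nefl and Nefm had log2 fold changes of 1.22 (adjusted p = 0.0185 by limma) and 1.11 (adjusted p = 0.0134 by limma). Nefl had 17.3, 14.4 and 17.1 scaled TPM in WT and 39.4, 33.3 and 43.5 in Npc1-/- samples, and Nefm had 6.71, 6.45 and 7.19 in WT and 16.1, 13.5 and 16.0 in Npc1-/- samples. Both groups were separated in each gene, at folds of means of 2.38 and 2.24, and each was called in 9 of 15 other settings. The list of 11 genes had a median log2 fold change of 0.44, and its summed level was 195 to 230 scaled TPM in WT and 243 to 298 in Npc1-/- samples. All 4 microglial genes and all 3 endothelial genes had lower values in every Npc1-/- sample, where 14.2% of all genes did. So did 3 of the 4 astrocyte genes, while Gfap was higher in every Npc1-/- sample. Of the microglial and endothelial genes only Tmem119, a microglial membrane protein, fell by limma (log2 fold change -1.44, adjusted p = 0.0442, called in 8 of 15 other settings). Their sums were 92.6 to 152 scaled TPM in WT and 42.6 to 80.8 in Npc1-/- samples for microglia, and 383 to 557 and 273 to 331 for endothelial cells. Of 12 oligodendrocyte lineage genes and 4 astrocyte genes, 0 passed by limma. At an unadjusted p below 0.05, 1 and 1 were higher and 0 and 1 lower, against 10.6% and 11.6% of all genes. The part of these differences in the levels of the 10 genes was not tested.

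**Figure D5:**
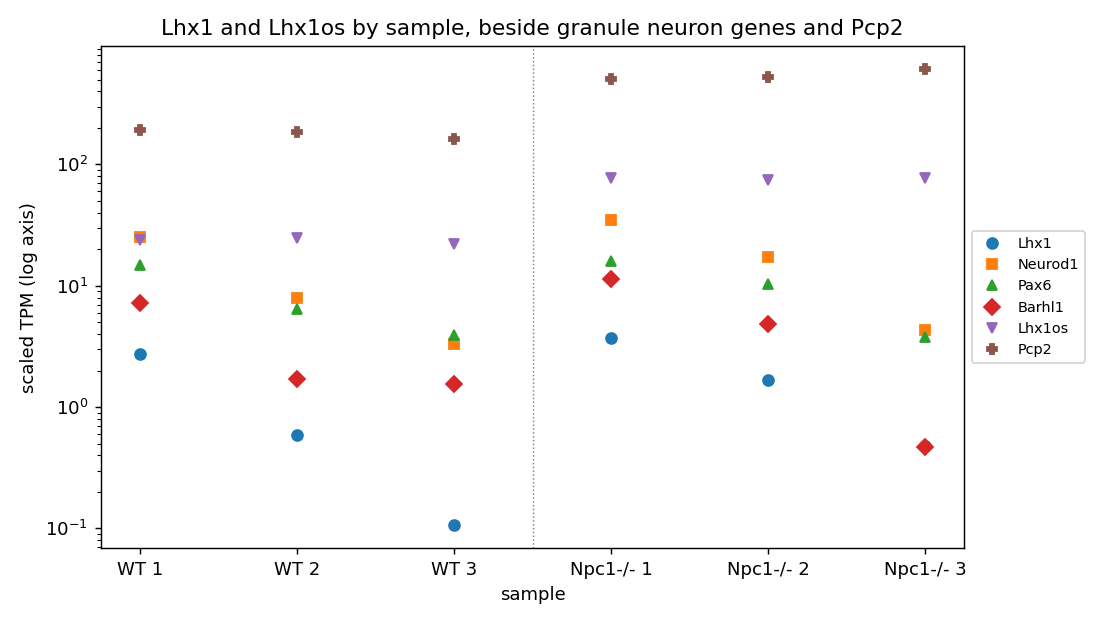
Scaled TPM on a log axis of Lhx1, Lhx1os, the granule neuron lineage genes Neurod1, Pax6 and Barhl1, and Pcp2, with 1 marker per gene and the 3 WT samples left of the dotted line. Pcp2 and Lhx1os are level within each genotype, while Lhx1, Neurod1 and Pax6, shown because they ran with Lhx1 most closely, are highest in replicate 1 and lowest in replicate 3 of both.

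The spread of Lhx1 over the samples was compared with the granule neuron list after its values had been seen. Neurod1, a transcription factor of granule neurons, had 25.4, 7.92 and 3.31 scaled TPM in WT and 34.9, 17.3 and 4.28 in Npc1-/- samples, and put the 6 samples in the same order as Lhx1. Pax6, another factor of the granule lineage, had 14.8, 6.44 and 3.95 scaled TPM in WT and 16.1, 10.4 and 3.76 in Npc1-/- samples. Barhl1 ranged from 0.468 to 11.3 scaled TPM over the 6 samples. Not all of the list ran with Lhx1: of its 12 tested genes, 8 had a Spearman rho with Lhx1 above 0 over the 6 samples, and 4 had one below 0. Those 4 were Etv1 (-0.83), Gabra6 (-0.66), Cbln3 (-0.60) and Grin2c (-0.37), and the samples of each pair share their size factors. Pcp2 and Lhx1os did not share the order of Lhx1 either. The part of granule lineage cells in the values of Lhx1 was not tested.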

How the data were processed

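RNA-seq of O4-purified cells of 3 WT and 3 Npc1-/- mice, grouped by the genotype in the sample labels, was used. The authors deposited TPM and FPKM for 55492 genes, and FPKM served only for depth. The study's methods name bbduk, STAR, featureCounts and DESeq2 on GRCm38, whereas the submitters' processing notes list cutadapt 2.3, STAR 2.7.8a and RSEM 1.3.3. How TPM and FPKM were computed is not given in the sources used here.

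TPM was divided by median-of-ratios size factors over 18690 genes (0.727 to 1.30) and taken as log2(value + 0.5), which understates the change of low genes. The fit by limma 3.58.1 (R 4.3.3) took genes whose mean TPM reached 0.5, with genotype as its factor, a variance trend, two-sided p and Benjamini-Hochberg adjustment. It stands in for the count model of the study because TPM is no count. In simulated data for 15043 genes it called 162 of 200 with a true log2 change of 1.5, and 6 without any change. The simulated noise was independent between genes and samples, with no effect shared by replicate number, and smaller changes were not tried. Depth was fitted to low FPKM values of single-transcript genes. At the depth found, 82.0% to 85.9% of these came within 0.15 of whole fragments, where an even spread gives 30%. Positions are from GENCODE M21, which held 55141 of the identifiers, and sequences are from RefSeq.

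The 10 genes and all lists were chosen with earlier results of these data known. Named were the 10 genes, the other Purkinje cell genes, called genes of any list, abundant genes of each list, tested neighbours and the genes most like the 10, beside a few named after their values were seen. Some genes of these lists are counted but not reported here by name. Alternatives were quantile normalization, TPM as deposited, no filter or a mean TPM of at least 5, pseudocounts of 1 and 0.1, no variance trend, the replicate number as a block, a length curve and each sample left out.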

Additional observations from a re-analysis of the deposited data

How the results depend on the processing

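The direction of each of the 10 genes was the same in all 147 values recomputed under an alternative, and 13 of these moved by more than the spread between replicates. Their median log2 fold change was 0.88 on TPM as deposited and 1.60 with a mean TPM of at least 5, which leaves out the scarcest genes, and lay between 1.20 and 1.32 with each sample left out. The number of genes whose Npc1-/- values all lay above WT was 6 on TPM as deposited and 8 with any sample left out.

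Counts over all genes moved more. Against 61 higher and 63 lower, there were 54 and 870 on TPM as deposited, 92 and 133 after quantile normalization, 14 and 7 with no filter, 175 and 272 with a mean TPM of at least 5 and 26 and 16 without a variance trend. With each sample left out the counts ran from 3 to 109 higher and from 1 to 377 lower, both highest without Npc1-/- replicate 3 and lowest without Npc1-/- replicate 2, and in these fits the group with 2 samples is assumed to vary like the other. The cause was not tested.

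For the other Purkinje cell genes, where 0 were called, 1 was called higher on TPM as deposited, 1 after quantile normalization and 1 with a mean TPM of at least 5, and 3, 0 and 1 were called lower. With each sample left out 0 to 1 were higher and 0 to 3 lower. For the IP3, calcium and cGMP pathway, where 0 were called, 5 were lower on TPM as deposited and 2 with a mean TPM of at least 5, and 0 to 4 with each sample left out. Under the length curve, chosen after seeing the data, 56 genes were higher and 58 lower and neither list had a call.

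The replicate numbers occur in both genotypes, the samples are different mice, and the labels do not say what same-numbered samples share. Deviations of same-numbered samples from their genotype mean correlated at 0.414, 0.0602 and 0.326, and the cause was not tested. The main fit left the numbers out because the study used condition as its main factor. With a replicate block in the model, 1143 genes were higher and 868 lower, with 2 and 2 of the other Purkinje cell genes and 1 and 6 of the pathway. The standard error of Lhx1 was then 0.18 around a log2 fold change of 0.69.

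Low depth limits Ppp1r17, with 33 to 90 estimated fragments per library, and Lhx1 has no such estimate. With 3 mice per genotype and 1 female-typical library among the Npc1-/- samples, sex was not a term in any fit.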
